A study of Mus musculus with 12 samples.

Results

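The Id proteins and the E proteins they bind were followed at the transcript level in dendritic cells (DCs) of the mouse spleen, which present antigen to T cells. The 6 genes were chosen by name: Id1, Id2 and Id3, and their partners Tcf3, Tcf4 and Tcf12. Each matched 1 of the 57009 Ensembl identifiers in the deposited count table, and all 6 had enough counts to be tested. The names use no measured value, but they were picked with earlier results of these data known, so the tests below describe these libraries and are not independent support.

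RNA was sequenced from 12 libraries, 3 in each of 4 groups, after 3 h of culture. All DCs came from spleens of C57BL/6 (B6) mice that carried a B16 melanoma made to secrete the DC growth factor Flt3 ligand, and T, B and natural killer cells and macrophages were first removed with beads. DCs were cultured alone (DC only), with lipopolysaccharide (LPS), a bacterial cell wall component at a dose the labels do not give, with syngeneic B6 memory T cells (SynTem), or with alloantigen-specific memory T cells of BALB/c origin (AlloTem). Sorting on CD11b and CD11c followed the culture. The T cells of SynTem and AlloTem differed in strain as well as in specificity, and these cannot be told apart. Separate animals or cultures are not stated for the replicates, so the p-values below cover no more than the spread of these libraries, part of which may be technical. DC only 1 and DC only 2 were more alike than any other pair of libraries within a group. The chi-square per degree of freedom between their counts, which grows with their difference, was 5.82, against 24.1 to 73.0 for the other pairs. The spread of DC only may therefore be too small in the comparisons that use it.

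E proteins are transcription factors of the basic helix-loop-helix class that bind DNA as dimers at short sequences called E-boxes. Id proteins have the helix-loop-helix but no basic region, so an E protein paired with an Id protein does not bind DNA. In DCs the balance is known for lineage choice: Id2 is needed for type 1 conventional DCs, and Tcf4, also called E2-2, for plasmacytoid DCs. Id1 and Id3 are known in many tissues as early targets of bone morphogenetic protein (BMP) signals.

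The genes lie apart in the genome. In GRCm38 coordinates Id1 (ENSMUSG00000042745) spans chromosome 2 from 152736251 to 152737410, Id2 (ENSMUSG00000020644) chromosome 12 from 25093799 to 25097140, and Id3 (ENSMUSG00000007872) chromosome 4 from 136143497 to 136145755. Tcf3 (ENSMUSG00000020167) spans chromosome 10 from 80409514 to 80433647 and Tcf12 (ENSMUSG00000032228) chromosome 9 from 71842688 to 72111871. Tcf4 is ENSMUSG00000053477. No exon of the 6 genes overlapped an exon of another annotated gene.

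The E-box is the sequence that E proteins bind, so the 250 bases before the annotated starts of the member genes were searched for it (CANNTG on both strands) and for GGCGCC, a GC-rich element bound by the BMP effectors SMAD1 and SMAD5. Windows came from RefSeq on GRCm38.p6 and were matched by symbol. They were searched for 4 of the 6 genes: Id2, Id3, Tcf3 and Tcf12. The windows used held none for Id1, and Tcf4 was left out of the search. Matches are shown with up to 12 bases on either side, 5′ to 3′ on the gene's strand, with the match in capitals. Counted from the RefSeq start, the match lay 196 bases before it for the Id2 E-box, 231 for the Id2 GGCGCC, 54 for Tcf3 and 240 for Tcf12.
Id2 E-box, chr12:25096271-25096300, minus strand: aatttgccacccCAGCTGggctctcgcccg
Id2 GGCGCC, chr12:25096306-25096335, minus strand: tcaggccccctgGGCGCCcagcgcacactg
Tcf3 E-box, chr10:80433672-80433701, minus strand: agtgggcgtggtCACTTGggggcgtggctt
Tcf12 E-box, chr9:72112042-72112069, minus strand: agatgctgccCAGCTGcgtccccgtcgc
Both Id2 matches lie within the GENCODE span of Id2, since the RefSeq start used lies inside it, and 161 of the 250 window bases are exonic there. In the windows shown for Tcf3 and Tcf12, 12 and 52 bases are exonic. Neither motif was found in the Id3 window, all 250 bases of which are exonic, or in 1 of the 3 Tcf12 windows, and not every Tcf12 match is shown. Of 32851 windows of the same length over all genes, 66.2% held an E-box and 9.59% held GGCGCC. A match is a description of these letters and not of binding.

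The libraries held 13903574 to 21861156 counts, and 14413 identifiers were tested. A deposited table gave batch numbers equal to the replicate numbers, and what a batch stands for is not stated. Y-linked transcripts summed to 130.9 to 219.6 CPM (counts scaled to a common library total) in library 3 of each group and in SynTem 2, and to 0 to 10.3 CPM in the other 7, so the libraries of a group did not all hold RNA of the same animals. The part of this split in the results was not tested; values within batches are given below. The defining DC markers were present in every library, with Flt3 at 316.1 to 460.5 CPM, Zbtb46 at 101.8 to 224.3 CPM and Itgax at 261.2 to 470.2 CPM. The sort was on CD11b and CD11c, yet Clec9a, a marker of type 1 conventional DCs, reached 77.1 to 145.8 CPM. Summed over 22 T cell markers the level was 53.3 to 95.04 CPM in DC only, 58.7 to 170.7 in LPS, 282.2 to 728.7 in SynTem and 141.7 to 295.1 in AlloTem.

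Id1 had the largest differences among the 6 genes, with AlloTem highest. Its level was 1.06, 0.857 and 0.588 CPM in DC only libraries 1 to 3, from 17, 15 and 12 counts. With LPS it was 3.39, 1.60 and 2.02 CPM, and with syngeneic T cells 7.95, 2.66 and 11.4 CPM. With alloreactive T cells it was 56.9, 31.8 and 29.0 CPM, from 1198, 642 and 614 counts. Every AlloTem library lay above every library of the 3 other groups, and every DC only library lay below every other. LPS and SynTem overlapped.

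Id1 rose 47.0-fold in AlloTem relative to DC only, from 0.836 ± 0.239 to 39.2 ± 15.4 CPM (SD, n = 3 each). The log2 fold change was 5.56 ± 0.58 (SE), with an adjusted p = 0.00209 in the quasi-likelihood test of edgeR (Benjamini-Hochberg adjustment over all genes). It was the one member called in this comparison, where 1.76% of all genes were called, and it ranked as number 11 of 14413 by p. Compared inside each batch, the log2 ratio was 5.20 in batch 1, 4.58 in batch 2 and 4.76 in batch 3. Groups that do not overlap in the higher direction made up 9.35% of all genes in this comparison, 7.09% in AlloTem against SynTem and 5.52% in AlloTem against LPS. Relative to LPS, Id1 rose 16.8-fold (log2 4.07 ± 0.53, edgeR adjusted p = 0.0106), again as the one member called, with 0.451% of all genes called. That call was lost without LPS 2 (log2 3.86, adjusted p = 0.0837) or without LPS 3 (log2 3.97, adjusted p = 0.0642).

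Relative to SynTem, Id1 was 5.33-fold higher in AlloTem (log2 2.41 ± 0.49, edgeR adjusted p = 0.0937), which did not pass. With the batch number as a block it passed (log2 2.46, edgeR adjusted p = 0.0398), in a fit that called 0.541% of all genes. Batch ratios were log2 2.76, 3.36 and 1.30, and SynTem 2 did not follow its own batch number, so the block rests partly on a doubtful pairing. Of 13 alternative settings this Id1 difference passed in 2, the block and DESeq2, and elsewhere the edgeR adjusted p reached 0.374. The difference of SynTem from DC only was 8.82-fold (log2 3.14 ± 0.55, edgeR adjusted p = 0.0740; adjusted p = 0.0573 with the block), and that of LPS from DC only 2.80-fold (log2 1.49 ± 0.55, adjusted p = 0.999). The order of the group means was thus DC only, LPS, SynTem and AlloTem, and by edgeR without the block no neighbours in that order differed past the threshold. DESeq2 called Id1 in AlloTem against SynTem (log2 2.42, adjusted p = 0.000112) and in SynTem against DC only (log2 3.15, adjusted p = 1.3e-06), though not in LPS against DC only (adjusted p = 0.771) or SynTem against LPS (adjusted p = 0.0556). SynTem against LPS gave log2 1.66 ± 0.50 (edgeR adjusted p = 0.370).

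Markers of other cell types also differed between these groups. T cell markers had a median log2 fold change from DC only of 3.38 in SynTem and 1.88 in AlloTem. In SynTem against DC only edgeR called 6 of 22 and DESeq2 18, beside 0.0902% and 1.77% of all genes. In AlloTem against DC only edgeR called 8 of 22 and DESeq2 10, beside 1.76% and 4.7% of all genes. Markers of basophils and mast cells summed to 324.9 to 422.6 CPM in AlloTem over 8 genes, against 260.3 to 314.2 in DC only, 251.8 to 293.3 in SynTem and 228.0 to 464.7 in LPS. Among their defining genes Mcpt8 was at 5.38 to 52.5 CPM and Cpa3 at 4.56 to 47.3 CPM in AlloTem, and at 0.280 to 5.75 and 0.147 to 2.96 CPM elsewhere. Fcer1a was at 0 in 5 libraries, none of them AlloTem. Markers of erythroid cells and platelets summed over 13 genes to 70.2 to 97.0 CPM in AlloTem, 25.9 to 58.0 in DC only, 43.5 to 45.1 in SynTem and 55.1 to 111.4 in LPS. Markers of endothelial and stromal cells, in which Id1 and Id3 are known to be expressed, were summed over 13 genes. The sum was 110.7 to 122.7 CPM in AlloTem, 78.8 to 127.4 in DC only, 85.6 to 107.6 in LPS and 86.7 to 116.0 in SynTem. AlloTem thus lay above LPS and overlapped the others. Most of the sum was Pecam1, at 65.3 to 98.1 CPM over all 12 libraries, and Kdr was at 2.60 to 26.8 CPM. The other defining gene, Cdh5, was at 2.88 to 5.03 CPM in AlloTem, 2.25 to 4.95 in DC only, 1.76 to 2.07 in LPS and 1.54 to 2.03 in SynTem. For Cdh5, AlloTem lay above LPS and SynTem and overlapped DC only. Markers of melanocytic cells summed over 7 genes to 2.16 to 7.29 CPM, with Mlana and Tyr at 0 in all 12 libraries and Pmel at 0.0633 to 0.614 CPM. The part of these cells in the Id1 values was not tested. In bulk RNA, more cells of a type and more RNA per cell cannot be told apart.

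**Figure D1:**
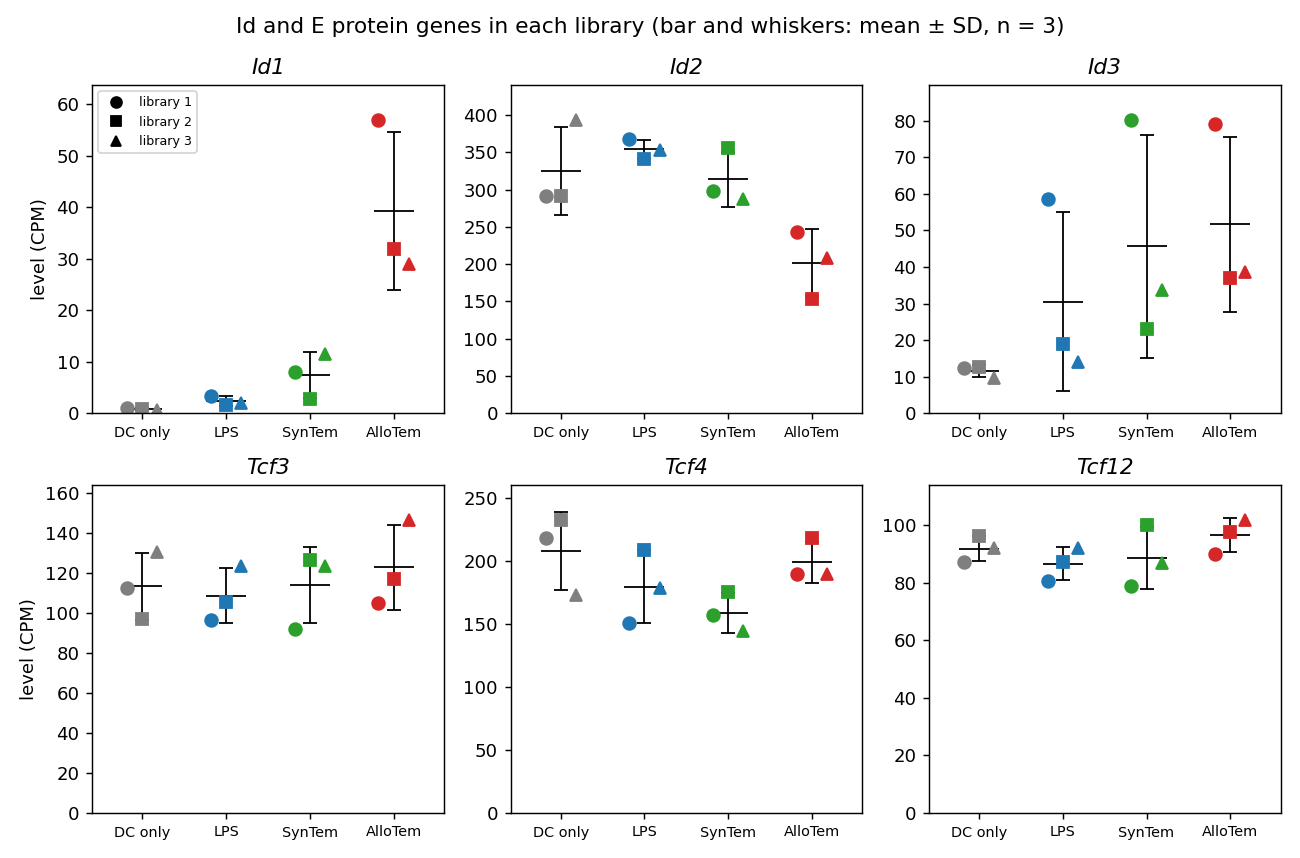
Level in CPM (y axis) of each gene in the 12 libraries by group, with marker shape for library 1, 2 or 3 and a bar with whiskers for the mean ± SD (n = 3). Id1 is at 29.0 to 56.9 CPM in AlloTem and at most 11.4 CPM elsewhere, Id2 is lowest in AlloTem, and library 1 has the highest Id3 in LPS, SynTem and AlloTem.

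Id3, the closest in pattern of the other Id genes, was higher in all 3 stimulated groups than in DC only. It was at 12.3, 12.7 and 9.50 CPM in DC only, and at 58.7, 18.9 and 13.9 CPM with LPS. It was at 80.2, 22.9 and 33.8 CPM in SynTem and at 79.3, 36.9 and 38.8 CPM in AlloTem. No DC only library overlapped any stimulated library, whereas the 3 stimulated groups overlapped one another. Library 1 was the highest of its group in each stimulated group, at 58.7 to 80.2 CPM, and in DC only library 1 did not stand apart.

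The same libraries stood apart in markers of other cells. Summed over 10 genes, natural killer cell markers were at 751.3, 559.9 and 725.1 CPM in LPS 1, SynTem 1 and AlloTem 1, at 76.7 to 162.0 CPM in libraries 2 and 3 of those groups, and at 272.7, 282.7 and 90.5 CPM in DC only. Macrophage markers, summed over 12 genes, were at 183.2, 245.9 and 217.9 CPM in LPS 1, SynTem 1 and AlloTem 1 and at 90.1 to 166.1 CPM in libraries 2 and 3. Their defining genes Cd5l and C1qa were at 0 to 1.99 and 0.0626 to 3.32 CPM over all 12 libraries. The other defining gene, Vcam1, was at 0.814 to 1.31 CPM in DC only, 1.62 to 5.28 in LPS, 1.203 to 6.34 in SynTem and 1.70 to 6.90 in AlloTem, so LPS and AlloTem lay above DC only. Neutrophil markers, summed over 12 genes, were at 296.0, 185.6 and 263.2 CPM in LPS 1, SynTem 1 and AlloTem 1 and at 1112 CPM in SynTem 3. They were at 45.9, 49.0 and 135.6 CPM in DC only. Against DC only all 12 were positive in LPS, SynTem and AlloTem (50%, 50.4% and 50.2% of all genes). The median log2 fold changes were 1.76, 2.43 and 2.00, with 5, 7 and 2 markers unadjusted, 0 called by edgeR and 0, 0 and 1 by DESeq2. The part of these cells in the Id3 values was not tested.

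In the edgeR fit of all 12 libraries without the block, Id3 did not pass in any comparison. AlloTem differed from DC only by 4.49-fold (log2 2.17 ± 0.61, edgeR adjusted p = 0.139), and passed with the batch as a block (log2 2.02, edgeR adjusted p = 0.0228, with 2.91% of all genes called), in an edgeR fit of the 6 libraries compared (log2 2.17, adjusted p = 0.0488) and by DESeq2 (log2 2.17, adjusted p = 0.00322). SynTem differed from DC only by 3.96-fold (log2 1.99 ± 0.61, edgeR adjusted p = 0.328, DESeq2 adjusted p = 0.0225) and LPS by 2.65-fold (log2 1.41 ± 0.60, adjusted p = 0.999). Without LPS 1 the LPS difference was log2 0.51. AlloTem and SynTem differed by log2 0.18, with a 95% interval from -1.11 to 1.47, so a change of over 2-fold in either direction would lie within the interval. The within-batch ratios of that comparison were log2 -0.02, 0.68 and 0.20. Beside the 9.35% of all genes for AlloTem, groups that do not overlap in the higher direction made up 7.42% for SynTem and 5.36% for LPS against DC only.

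Id2 was the most abundant Id transcript per length in every library and went the other way, with the lowest levels in AlloTem. It was at 291.6, 290.8 and 393.3 CPM in DC only, at 367.4, 341.3 and 353.4 CPM with LPS, and at 297.9, 356.4 and 286.8 CPM in SynTem. In AlloTem it was at 243.1, 153.7 and 208.6 CPM, below every one of the 9 other libraries. Groups that do not overlap in the lower direction made up 7.82% of all genes for AlloTem against DC only, 5.94% against SynTem and 4.54% against LPS.

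The Id2 difference of AlloTem was log2 -0.69 ± 0.17 from DC only, -0.64 ± 0.17 from SynTem and -0.81 ± 0.17 from LPS (edgeR adjusted p = 0.0848, 0.196 and 0.0807). These comparisons share the AlloTem libraries and none passed, also not with the batch block (adjusted p = 0.0694, 0.146 and 0.0704). Batch ratios were below 0 in 3 of 3 batches for each, with log2 -0.26, -0.92 and -0.91 against DC only. Natural killer cells are known for high Id2. In AlloTem the library with the highest natural killer cell markers (library 1) also had the highest Id2, and in LPS too, whereas SynTem 1 had more of these markers than SynTem 2 and less Id2, and DC only 3 had the fewest of its group and the most Id2. The part of these cells in the Id2 values was not tested. DESeq2 called all 3 (adjusted p = 0.00813, 0.0314 and 0.00133), in fits that called 4.7%, 2.21% and 2% of all genes. DC only, LPS and SynTem overlapped, with differences of log2 -0.17 to 0.12 between them (edgeR adjusted p = 0.829 to 0.999).

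Id4, the remaining Id gene and not one of the 6, had 0 counts in all 12 libraries, which allows a level of up to 0.142 to 0.223 CPM (3 counts per library, counting error only).

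**Figure D2:**
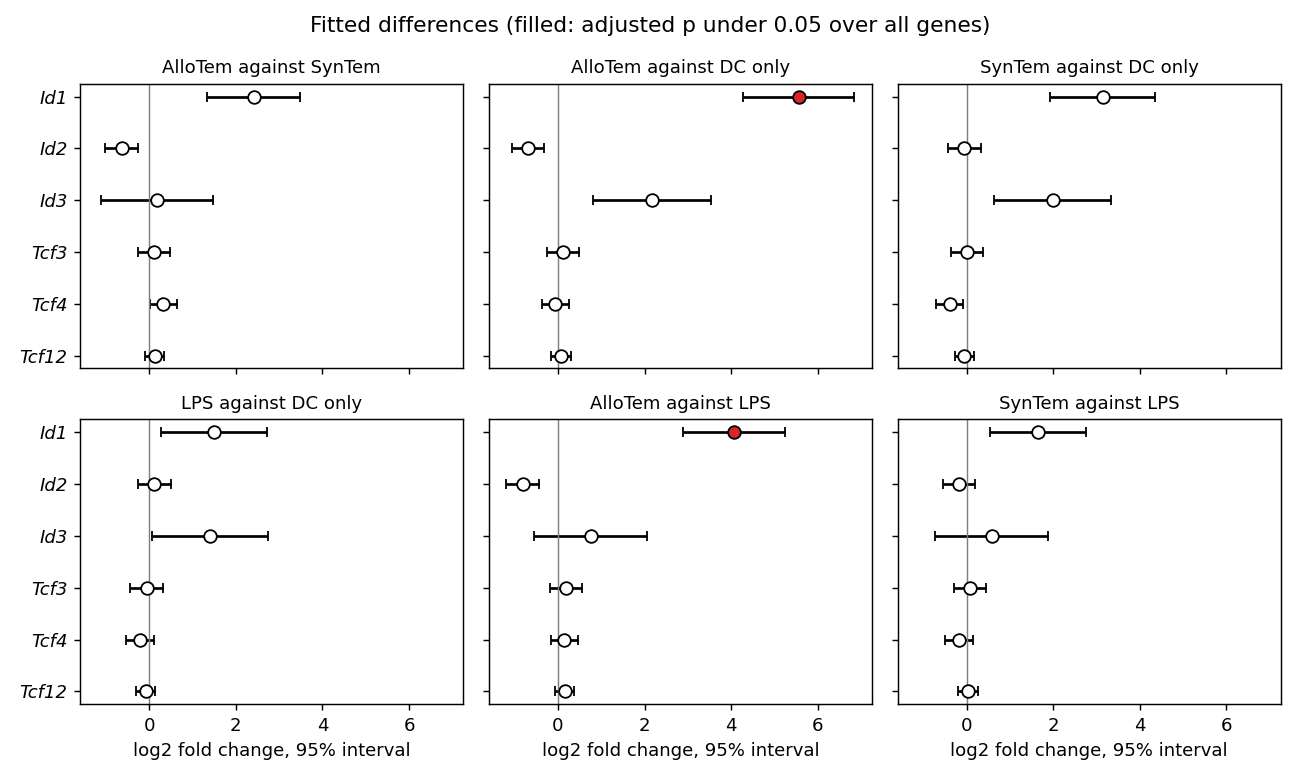
Log2 fold change (x axis) of the 6 genes in each comparison of 2 groups, with 95% intervals that are not adjusted for the number of genes. Filled points passed at an adjusted p under 0.05 over all genes, which were Id1 in AlloTem against DC only (5.56) and against LPS (4.07).

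The E protein genes varied much less. Tcf3, which encodes E2A, was at 97.0 to 130.1 CPM in DC only (112.4, 97.0 and 130.1 in libraries 1 to 3), 96.5 to 123.4 in LPS, 92.1 to 126.4 in SynTem and 105.1 to 146.4 in AlloTem. All 4 groups overlapped, and the highest library was AlloTem 3. Tcf12, which encodes HEB, was at 87.3, 96.1 and 92.2 CPM in DC only and at 90.1, 97.7 and 101.8 CPM in AlloTem. It was at 80.6 to 91.9 CPM in LPS and 88.5 ± 10.8 CPM (SD, n = 3) in SynTem, and all groups overlapped too.

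Tcf4, on chromosome 18, was at 217.8, 232.6 and 173.3 CPM in DC only, 150.9, 208.7 and 178.8 with LPS, 157.2, 175.2 and 144.0 in SynTem and 189.4, 217.9 and 189.9 in AlloTem. The 3 SynTem libraries lay below the 3 AlloTem libraries, whereas SynTem and DC only overlapped through DC only 3. Relative to SynTem, Tcf4 differed in AlloTem by log2 0.33 ± 0.14 (edgeR adjusted p = 0.501, higher in 3 of 3 batches). Relative to DC only, it differed in SynTem by log2 -0.39 ± 0.14 (edgeR adjusted p = 0.459, lower in 3 of 3 batches). Neither passed, and Tcf4 of AlloTem against DC only was log2 -0.06, with batch ratios of -0.20, -0.09 and 0.13.

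For AlloTem against DC only the 95% intervals of log2 fold change ran from -0.25 to 0.49 for Tcf3, from -0.38 to 0.25 for Tcf4 and from -0.15 to 0.29 for Tcf12. For AlloTem against SynTem they ran from -0.26 to 0.48, from 0.01 to 0.64 and from -0.10 to 0.34. Over all 6 comparisons the fitted log2 fold changes were between -0.06 and 0.18 for Tcf3, between -0.39 and 0.33 for Tcf4 and between -0.09 and 0.16 for Tcf12, and none passed.

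By edgeR 0 of the 6 genes were called in AlloTem against SynTem, where 3 had an unadjusted p under 0.05 and DESeq2 called 2. Of all genes, 0.167% were called there by edgeR and 2.21% by DESeq2. The edgeR count of the 6 genes was 0 in SynTem against DC only (3 at an unadjusted p under 0.05, 2 by DESeq2; 0.0902% of all genes by edgeR and 1.77% by DESeq2). It was 0 in LPS against DC only (2 unadjusted, 0 by DESeq2; 0% of all genes by edgeR and 0.0763% by DESeq2) and in SynTem against LPS (1 unadjusted, 0 by DESeq2; 0.0486% of all genes by edgeR and 1.37% by DESeq2). With the batch block 0.146% of all genes were called in SynTem against DC only, 0% in LPS against DC only, 0.944% in AlloTem against LPS and 0.194% in SynTem against LPS. Of all 14413 genes, 1381 had an unadjusted p under 0.05 in AlloTem against SynTem, 1836 in AlloTem against DC only and 937 in AlloTem against LPS. The number was 1187 in SynTem against DC only, 1148 in SynTem against LPS and 531 in LPS against DC only. Unadjusted counts of the lists below stand beside these. The median log2 fold change of the 6 genes was 0.09 in AlloTem against DC only and 0.15 against SynTem, beside 0.00097 and -0.01 for all genes.

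Levels of different genes were set side by side after division by exon length (CPM per kilobase of merged GENCODE exons). In DC only, Id2 stood at 133.4 ± 24.2, Tcf3 at 28.0 ± 4.10, Tcf4 at 7.59 ± 1.13, Id3 at 6.42 ± 0.976, Tcf12 at 5.91 ± 0.284 and Id1 at 0.721 ± 0.206 CPM per kilobase (SD, n = 3). In AlloTem, Id2 stood at 82.8 ± 18.5, Id1 at 33.8 ± 13.2, Tcf3 at 30.4 ± 5.28 and Id3 at 28.8 ± 13.4, and the last 3 lay within one another's spread. These places depend on the length used. With longest coding transcripts in place of merged exons, Tcf4 stood at 24.2 in DC only, and Tcf12 at 14.6 stood above Id3 at 9. In AlloTem, Id1 at 33.8 then stood below Tcf3 at 41.6 and Id3 at 40.4.

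The Id transcripts had a different make-up in AlloTem, while their sum per length overlapped between AlloTem (111.1 to 193.0 CPM per kilobase) and DC only (127.1 to 167.2). Id1 made up 25.4%, 24.7% and 18.9% of the summed Id level per length in AlloTem, and at most 0.720% in DC only, 1.57% in LPS and 6.74% in SynTem. Id2 made up 93.8% to 96.5% in DC only and 51.7% to 64.7% in AlloTem. With the longest coding transcripts as lengths, the Id1 share in AlloTem was 15.5% to 20.9%.

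The ratio of the summed Id to the summed E protein level per length was 3.08, 3.29 and 3.76 in DC only and 4.98, 2.58 and 2.66 in AlloTem. It was 5.39, 3.86 and 3.59 in LPS and 5.17, 3.65 and 3.53 in SynTem. Library 1, with the highest natural killer cell markers, was the highest of each stimulated group, and AlloTem overlapped each other group through AlloTem 1. These ratios of RNA do not count protein, and their absolute size depends on the lengths used.

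**Figure D3:**
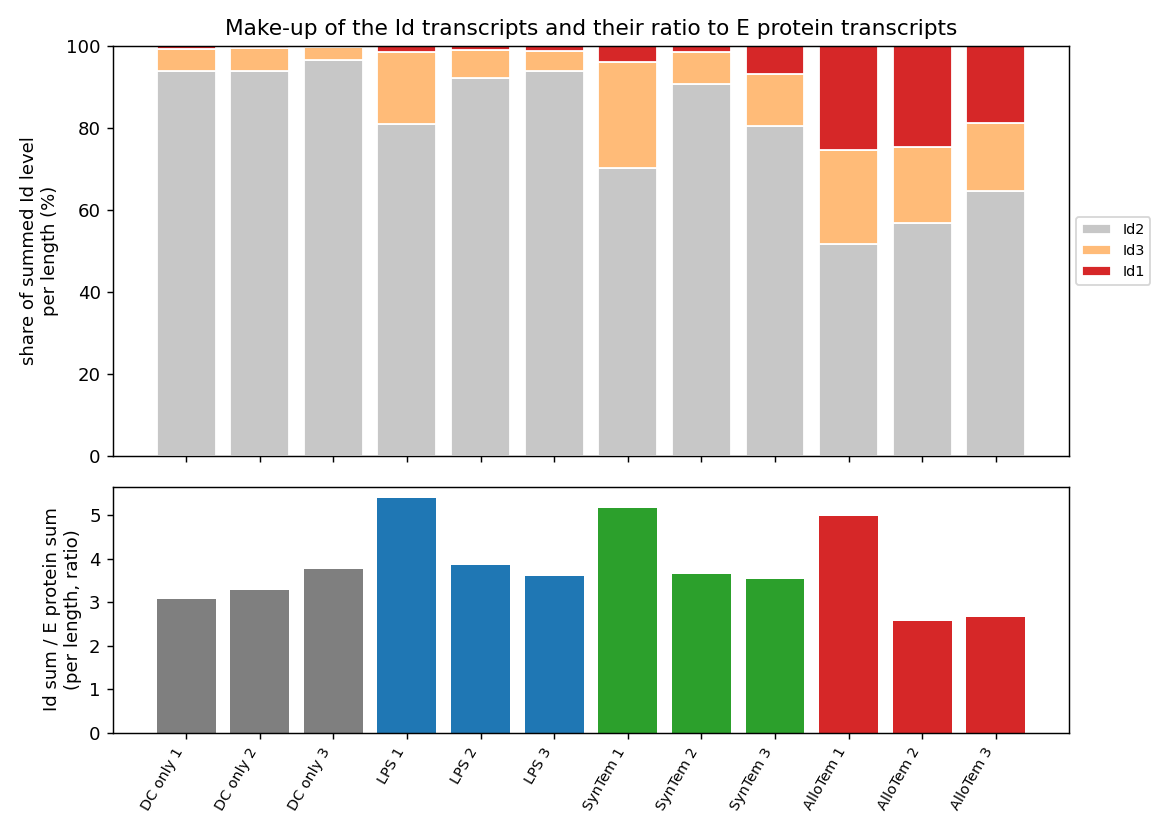
Share in percent of Id1, Id2 and Id3 in their summed level per exon length (upper y axis) and ratio of the summed Id to the summed E protein level (lower y axis) in each library (x axis). Id1 reaches 18.9% to 25.4% in AlloTem, while the ratio in AlloTem (2.58 to 4.98) overlaps the other groups.

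Other genes of the Id and E protein system were read from a list of 26, of which 18 could be tested, among them cofactors (Lmo2, Ldb1, Cbfa2t3), coactivators (Crebbp, Ep300) and helix-loop-helix factors (Tal1, Lyl1, Bhlhe40). By edgeR 0 were called in any of the 6 comparisons. In AlloTem against DC only 5 had an unadjusted p under 0.05, DESeq2 called 1, and 7 of 18 were positive with a median log2 fold change of -0.12 (50.2% of all genes were positive). The smallest p there was that of Cdkn1a, a cell cycle inhibitor whose gene E proteins are known to activate, at 955.3 ± 400.2 CPM in AlloTem and 319.5 ± 184.2 CPM in DC only (log2 1.58 ± 0.50, edgeR adjusted p = 0.190). It also had the smallest p against SynTem (208.5 ± 70.2 CPM, log2 2.20 ± 0.51, edgeR adjusted p = 0.145, with 2 of the list unadjusted and 1 by DESeq2). In the other comparisons the smallest p was that of Lmo2 in SynTem against DC only (log2 -0.37, edgeR adjusted p = 0.463), Mxd1 in LPS against DC only (0.72, 0.999), Tal1 in AlloTem against LPS (2.14, 0.276) and Cdkn1a in SynTem against LPS (-1.10, 0.626). There 3, 0, 2 and 1 of the list had an unadjusted p under 0.05, and DESeq2 called 0 in each.

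Of 33 genes of the BMP and TGF-beta pathway, 28 were tested. Smad7, an inhibitor that both branches of the pathway induce, rose in AlloTem relative to DC only, from 26.0 ± 4.28 to 42.3 ± 3.37 CPM (log2 0.70 ± 0.14, edgeR adjusted p = 0.0316). It was the 1 called gene of the list there, beside 1.76% of all genes. Of the list 6 had an unadjusted p under 0.05, and DESeq2 called 1, beside 4.7% of all genes. The list median was log2 0.20 with 20 of 28 positive (50.2% of all genes). Relative to SynTem, Smad7 differed by log2 0.44 ± 0.14 (edgeR adjusted p = 0.311), 0 of the list were called (4 unadjusted, 0 by DESeq2) and the median was -0.13. In the other comparisons 0 were called by edgeR, with an unadjusted p under 0.05 for 4, 2, 3 and 2 in SynTem against DC only, LPS against DC only, AlloTem against LPS and SynTem against LPS, and 1, 0, 0 and 1 called by DESeq2. Their smallest p was that of the activin receptor gene Acvr2a in SynTem (log2 0.59 from DC only, edgeR adjusted p = 0.213; log2 0.58 from LPS, adjusted p = 0.225) and otherwise that of Smad7 (log2 0.32 in LPS against DC only, adjusted p = 0.999; log2 0.38 in AlloTem against LPS, adjusted p = 0.515). Smad6, an inhibitor of the BMP branch, was at 3.12 ± 1.68 CPM in AlloTem and 1.24 ± 0.375 CPM in DC only (log2 1.33 ± 0.63, edgeR adjusted p = 0.422), named here after its values were seen.

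All 26 transcription factors of DC lineages on another list were tested. Against DC only, 3 rose and 1 fell in AlloTem, where 1.35% of all genes rose and 0.409% fell. Nfil3, which is known to act upstream of Id2 in type 1 conventional DC development, rose from 24.6 ± 1.69 to 199.9 ± 33.6 CPM (log2 3.03 ± 0.22, edgeR adjusted p = 0.000497), where Id2 itself was at log2 -0.69. Irf4, a factor of type 2 conventional DCs, rose from 100.4 ± 10.9 to 383.6 ± 83.7 CPM (log2 1.93 ± 0.16, edgeR adjusted p = 0.00096), and the AP-1 family member Batf from 16.1 ± 3.92 to 33.0 ± 6.74 CPM (log2 1.04 ± 0.21, edgeR adjusted p = 0.0362). Bcl6, a repressor, fell from 224.2 ± 5.03 to 102.7 ± 13.5 CPM (log2 -1.13 ± 0.21, edgeR adjusted p = 0.0257). Zeb2, which is known to repress Id2, was at 308.4 ± 119.3 CPM in AlloTem and 304.9 ± 91.3 CPM in DC only (log2 0.02 ± 0.38, edgeR adjusted p = 0.994), named here for that role after its values were seen. The list median was log2 0.02, with 11 of the list at an unadjusted p under 0.05 and 6 called by DESeq2, beside 4.7% of all genes. Irf4 and Nfil3 also rose in AlloTem relative to SynTem (log2 1.83 ± 0.16 and 1.65 ± 0.21, edgeR adjusted p = 0.00276 and 0.0126) and relative to LPS (log2 2.21 ± 0.16 and 2.38 ± 0.21, edgeR adjusted p = 0.000544 and 0.0014), as the 2 genes of the list that edgeR called in each. Of all genes, edgeR called 0.167% and 0.451% there. DESeq2 called 5 and 4 of the list (7 unadjusted in each), beside 2.21% and 2% of all genes. Nfil3 rose in SynTem relative to DC only as well (log2 1.38 ± 0.21, edgeR adjusted p = 0.048). Nfil3 was the 1 gene of the list that edgeR called there (5 unadjusted, 4 by DESeq2), beside 0.0902% of all genes by edgeR and 1.77% by DESeq2. It had the smallest p of the list in LPS against DC only (log2 0.64, edgeR adjusted p = 0.999; 0 called, 6 unadjusted, 0 by DESeq2) and in SynTem against LPS (log2 0.73, edgeR adjusted p = 0.322; 0 called, 5 unadjusted, 0 by DESeq2). The list holds genes already known to move in these libraries.

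Markers of the DC subsets that depend on Id2 or Tcf4 were read beside those genes. Of 13 markers of type 1 conventional DCs 0 were called in AlloTem against DC only (4 at an unadjusted p under 0.05, 1 by DESeq2), with a median log2 fold change of -0.07. Their sum was 1921 to 3450 CPM in AlloTem and 2384 to 2771 CPM in DC only. Of 16 plasmacytoid DC markers 0 were called in SynTem against DC only (4 unadjusted, 2 by DESeq2). There 4 were positive (50.4% of all genes), with a median of -0.35, beside -0.39 for Tcf4. In LPS against DC only 0 were called (0 unadjusted, 0 by DESeq2) and 3 were positive (50% of all genes). The median there was -0.38, beside -0.21 for Tcf4. In AlloTem against SynTem 0 of the 16 were called (3 unadjusted, 0 by DESeq2). There 15 were positive (48.5% of all genes), with a median of 0.54, beside 0.33 for Tcf4. Their sum overlapped, at 609.0, 600.4 and 1134 CPM in SynTem and 786.2, 955.1 and 685.3 CPM in AlloTem, and was 1222, 1199 and 579.3 CPM in DC only. In SynTem, library 3 had the highest sum and the lowest Tcf4, whereas in AlloTem library 2 was highest in both. In AlloTem against DC only 0 of the 16 markers were called (1 unadjusted, 1 by DESeq2). There 9 were positive (50.2% of all genes), with a median of 0.10, beside -0.06 for Tcf4, so the signs differed. The part of plasmacytoid DC number in the Tcf4 values was not tested. Of 13 markers of type 2 conventional DCs 2 rose in AlloTem against DC only (4 unadjusted, 3 by DESeq2), with a median of 0.34, where 1.35% of all genes rose. The type 2 sums overlapped, at 860 to 1443 CPM in AlloTem and 873 to 1020 CPM in DC only.

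The genes with levels most like those of each member were taken as the 5 with the highest Pearson r of log2 CPM over the 12 libraries, among 9662 genes with a mean of at least 5 CPM. For Id1 they were Egr2 (0.975), Nfil3 (0.971), Osm (0.971), Fosl2 (0.966) and Socs3 (0.959). These encode 3 transcription factors, a cytokine and an inhibitor of cytokine signalling. Egr2 had means of 6.64, 12.8, 22.9 and 107.4 CPM in DC only, LPS, SynTem and AlloTem, and Socs3 44.7, 124.8, 139.5 and 862.6 CPM, the same order of groups as Id1.

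For Id3 the highest r values were those of Sertad1 (0.973), Ms4a4a (0.951), Metrnl (0.932) and Gk (0.917). For Id2 they were Rgs3 (0.911), Atg101 (0.901), Lpar6 (0.881), Wdr44 (0.870) and Mfsd14a (0.868), all 5 with their lowest mean in AlloTem. Runx2, a transcription factor, was most like Tcf4 (0.947), with means of 235.6, 171.7, 137.0 and 196.6 CPM in the same order of groups. Hoxa7 was most like Tcf3 (0.952) and Orc2 most like Tcf12 (0.918). The libraries share batches and groups, so these r values describe likeness only. The genes were picked by r over these same libraries, so a shared order of groups or a shared lowest group follows largely from that choice.

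**Figure D4:**
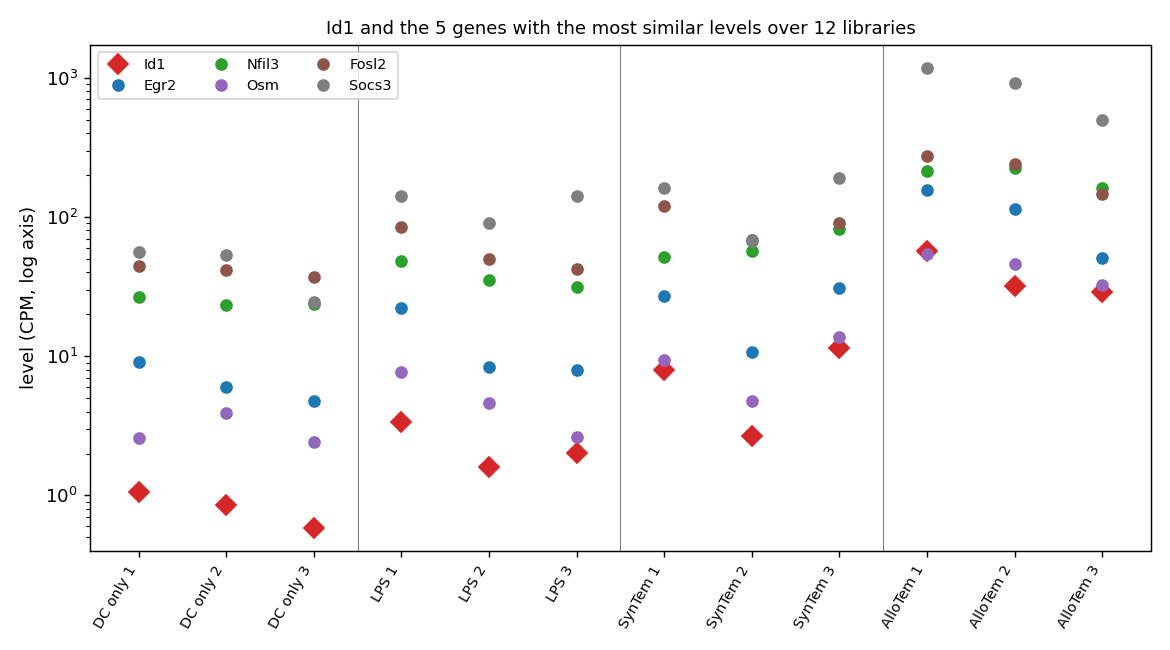
Level in CPM (y axis, log scale) of Id1 and the 5 genes most like it in each of the 12 libraries (x axis), 1 point per gene and library. All 6 are highest in the 3 AlloTem libraries, where Id1 is at 29.0 to 56.9 CPM.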

How the data were processed

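DNase-treated RNA was made into TruSeq libraries and read on a NextSeq, per the labels' protocols. The authors deposited raw counts for each Ensembl gene, 1 column per library, with no normalization. Per the submitters' processing notes the genome was mm10. The aligner, the counter, the strand setting and the annotation used for counting: not given in the sources used here. Another deposited table holds a batch number per library.

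Symbols were matched by identifier for 52028 of 57009 (the 4981 others held 0.763% of counts), and coordinates and exon lengths came from GENCODE M21 (GRCm38). Genes were filtered with filterByExpr (minimum count 10, minimum total 15), leaving 14413. TMM scaling (trimmed mean of M values) was applied, and the 12 libraries were fitted together with 1 mean per group and robust quasi-likelihood dispersions in edgeR 4.0.16 (R 4.3.3). P-values were adjusted by Benjamini-Hochberg over all genes of a comparison, and called under 0.05. The SE is the log2 fold change divided by the root of F. CPM levels use the TMM-adjusted totals, batch ratios add 0.5 CPM, and likeness used a prior count of 2. The fit was tested on simulated data. Alternatives were RLE scaling, DESeq2 1.42.0, other filters, the batch block and leaving libraries out.

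The members and lists were chosen with earlier results of these data known. Named genes were the 6 members and, from each pathway list and comparison, up to 4 called genes with a mean of at least 1 CPM and the largest change, or the gene with the smallest p. Marker lists are given for cell types that bear on a result. Some promoter matches and genes of like pattern are not reported here.

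The deposited batch numbers equal the replicate numbers in 12 of 12 libraries and were taken as pairs. Deviations from group means correlated at a median of 0.247 over 18 pairs with the same number (12 above 0.1, range -0.25 to 0.63) and -0.20 over other pairs. DC only 2 and SynTem 2 did not follow their own number, so batch ratios that use them rest on a doubtful pairing.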

Additional observations from a re-analysis of the deposited data

How the results depend on the processing

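Of 462 recomputed member values, 424 kept their direction and side of the threshold. Id1 in AlloTem against DC only passed in all 13 alternatives (log2 5.18 to 5.76, adjusted p up to 0.0262). With the replicate block, which uses the batch pairing, 1 member was called in AlloTem against SynTem (Id1) and 2 against DC only (Id1, Id3), and it changed no other member's call. DESeq2 called 2, 3 and 2 members in AlloTem against SynTem, DC only and LPS and 2 in SynTem against DC only. The 6 libraries compared alone gave 2 in AlloTem against DC only, and no filter gave 2 in AlloTem against LPS (Id2 at adjusted p = 0.0481). Leaving out 1 library gave 0 to 1 in AlloTem against LPS. The cause was not tested.

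Leaving out 1 library turned the sign of uncalled values: Id3 in AlloTem against SynTem (-0.27 to 0.87) and SynTem against LPS (-0.10 to 1.47), Id2 in SynTem against DC only (-0.16 to 0.11), Tcf4 in AlloTem against DC only (-0.18 to 0.0253), and Tcf12 in SynTem against DC only (-0.15 to 0.0261) and LPS (-0.0642 to 0.11). Tcf3 did so in AlloTem against SynTem (-0.0302 to 0.21) and DC only (-0.0208 to 0.23), SynTem against DC only (-0.0903 to 0.14) and LPS (-0.0085 to 0.20), and LPS against DC only (-0.17 to 0.0498). Without DC only 2 and SynTem 2, Id3 was -0.14 in AlloTem against SynTem, Tcf4 0.0252 in AlloTem against DC only, Tcf3 -0.17 in SynTem against DC only and -0.0089 against LPS, and Tcf12 -0.0646 in SynTem against LPS. With no filter Tcf3 was -1.7e-06 in SynTem against DC only.

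Counts over all genes moved more than 1.5 times. For AlloTem against SynTem the main count was 24 and alternatives gave 0 to 318. For AlloTem against DC only these were 253 and 16 to 677, against LPS 65 and 9 to 288. For SynTem they were 13 and 0 to 255 against DC only, and 7 and 0 to 198 against LPS. For LPS against DC only they were 0 and 0 to 11. The highest of each range was DESeq2. Id1 in DC only rests on 12 to 17 counts per library, so its fold carries that counting error.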
